A study of Drosophila melanogaster with 6 samples.

Results

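A set of 45 *D. melanogaster* genes that are known by a CG number and were at low levels in uninjured heads had higher transcript levels 4 hr after penetrating traumatic brain injury (PTBI). They were taken from the 367 genes that the authors listed as changed by PTBI, of which 259 were listed as higher and 108 as lower. A gene entered the set if its symbol in the tables was CG plus digits, its mean over the 3 control samples was below 1 RPKM (reads per kilobase of exon, scaled to the size of the library), and its mean over the 3 PTBI samples was above its control mean. Of 121 CG-numbered genes listed as higher, 52 met these limits, and 7 of these were left out by name along with the Bomanins. The genes were thus chosen by their RPKM in these same PTBI and control samples, so differences between PTBI and control samples are described below and not tested.

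RNA was taken from whole heads of young males, with 3 samples of males injured in the left and the right central brain 4 hr before and 3 samples of uninjured males matched for age and sex. Flies came from a cross of *w; UAS-mCD8-GFP;; OK107-GAL4* to *yw*, so both groups carried a GAL4 driver used for the mushroom body and a membrane GFP reporter. The series description gives collection within 6 hr of eclosion and pools of about 100 to 120 heads per sample. The labels call the samples biological replicates and do not say whether they came from separate crosses or days. Heads hold brain, eyes, fat body, hemocytes, muscle and cuticle, and in such a mixture more cells of a type and more RNA per cell cannot be told apart.

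A CG number is the name the genome annotation gave to a predicted gene, and most genes in this set have no other name. Several of them encode chymotrypsin-like serine proteases or their homologs, many of which are secreted. In insects such enzymes act one after another in the hemolymph, where they lead to cleavage of the Toll ligand Spätzle and to melanization at wounds. Homologs that lack catalytic residues can act as cofactors in the same cascades.

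Across the 45 genes, control means ran from 0.00940 to 0.963 RPKM (median 0.204) and PTBI means from 0.0433 to 19.0 RPKM (median 0.762). The ratio of PTBI mean to control mean ran from 1.93 to 22.2, with a median of 4.62. Over the 259 genes listed as higher the median ratio was 3.13, and over 62 CG-numbered genes at 1 RPKM or more in controls it was 2.80. These 62 exclude genes left out by name but include Bomanins. The rule limits the control mean, by which the ratio is divided, so a larger ratio than in these groups is partly built in. The 41 other higher genes below 1 RPKM in controls, whose symbols are not CG numbers, had a median ratio of 3.36, from 1.98 to 42.8, and 5 of them stood at 10-fold or more. At 10-fold or more stood 7 of the 45 genes, beside 30 of the 259 listed as higher. These 30 are 8.17% of all 367 listed genes, which include 108 listed as lower. The PTBI and control samples did not overlap in any of the 45, which is also the case for all 259 higher genes (70.6% of those listed) and so says nothing particular about this set. Only 20 of the 45 had a PTBI mean above 1 RPKM, so most were still low after injury.

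**Figure D1:**
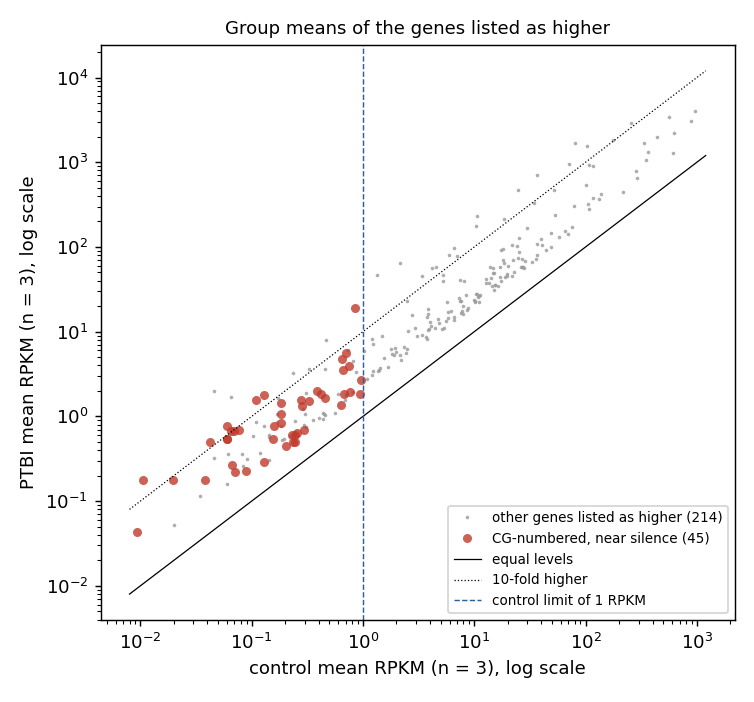
Mean RPKM in PTBI samples (y axis, log scale, n = 3) against mean RPKM in controls (x axis, log scale, n = 3) for the 259 genes listed as higher, with the 45 CG-numbered genes in red. The 45 genes lie left of the limit of 1 RPKM and between 1.93-fold and 22.2-fold above the line of equal levels.

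The genes differed widely in how many reads carry their values. Whole reads could be recovered for 43 of the 45 from the RPKM and the exon lengths of the Ensembl annotation, within 0.02 reads. They held 30 to 1124 reads over the PTBI samples (median 90) and 3 to 214 reads over the controls (median 21), in libraries of 24344254 to 36162332 reads. Together they took 71.5, 91.9 and 77.3 RPM (reads scaled to 1000000 per library) in the PTBI samples and 17.4, 14.7 and 18.5 in the controls. For 12 genes the controls held 10 reads or fewer in all, and their ratios are the least precise. Exact 95% intervals for the ratio of RPM, given with some genes, cover counting error only and describe precision.

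**Figure D2:**
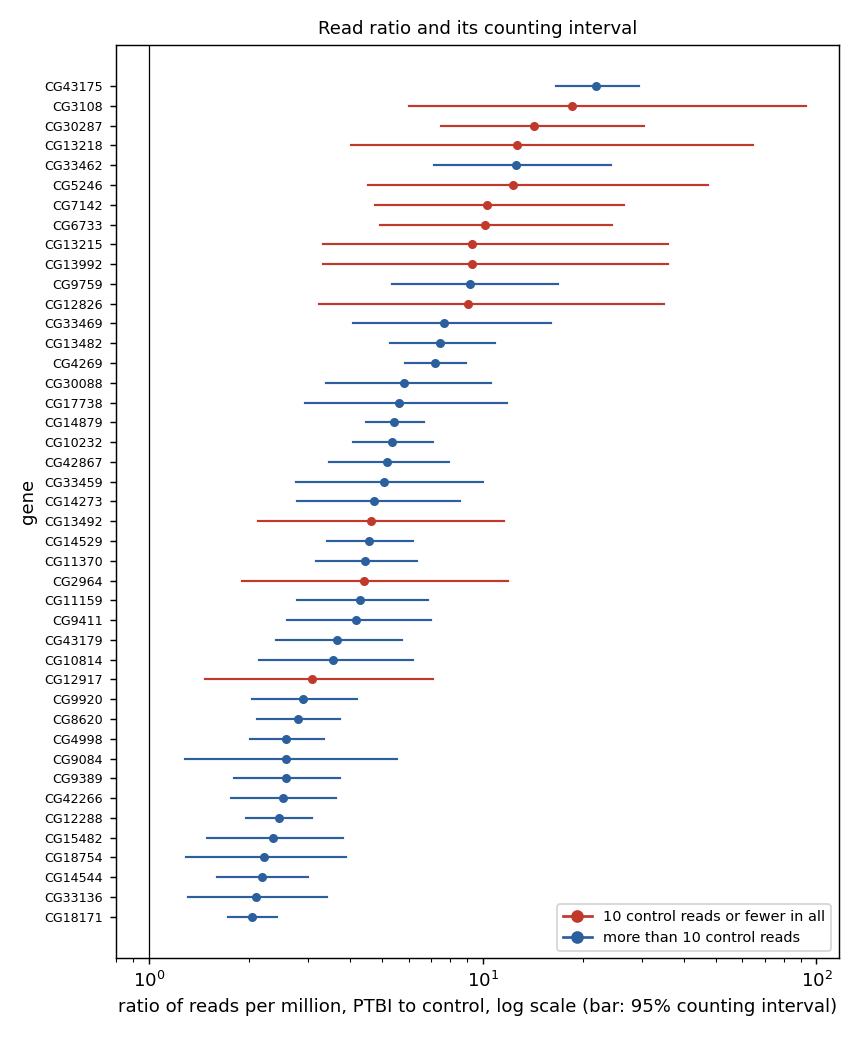
Ratio of RPM in the PTBI samples to that in the controls (x axis, log scale) for 43 genes, with exact 95% counting intervals as bars and genes with 10 control reads or fewer in red. The intervals are widest for *CG3108* (6.02 to 92.8) and *CG13218* (4.03 to 64.5), which held 3 control reads each.

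Of the 45 genes, 9 carry a serine protease (SP) or serine protease homolog (SPH) number among their RefSeq synonyms, or 20%. Among all 259 higher genes the share was 8.88%, and among the 13986 protein-coding genes of the annotation 1.92%. It was 9.68% among the 62 CG-numbered genes at 1 RPKM or more in controls, which include Bomanins. Other protease genes were among those left out by name. The median ratio over the 9 genes was 5.87, and their ratios ran from 2.23 to 14.3.

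*CG30287* (SPH37 in RefSeq) was at 1.28, 1.33 and 2.08 RPKM in the PTBI samples and at 0.105, 0.145 and 0.0789 RPKM in controls. The PTBI mean of 1.57 ± 0.449 RPKM was 14.3-fold the control mean of 0.110 ± 0.0331 RPKM (n = 3 each, SD), on 10 control reads. The lowest PTBI sample was 8.86 times the highest control, so the groups lay far apart. *CG33462* (SP240) was at 1.65, 2.28 and 1.41 RPKM after PTBI and at 0.131, 0.216 and 0.0368 RPKM in controls, 13.9-fold higher. Most of its control reads (8 of 13) came from control replicate 2, without which the ratio was 21.3. *CG30088* (SP219) was at 0.501, 1.33 and 1.41 RPKM after PTBI and at 0.181, 0.209 and 0.163 RPKM in controls, 5.87-fold higher, with PTBI replicate 1 well below the other PTBI samples. RefSeq gives *CG33462* and *CG30088* a shared older symbol, CG8215, and a shared synonym, SP41. If their sequences are alike they could share reads, which was not tested.

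*CG5246* (SP96) was near absent in controls, with read numbers of 1, 1 and 2, and reached 8, 18 and 22 after injury. In RPKM it was at 0.244, 0.681 and 0.577 after PTBI and at 0.0309, 0.0255 and 0.0695 in controls, 11.9-fold higher, with a counting interval of 4.53 to 47.3 for the ratio of RPM. *CG7142* (SP132) was at 0.666, 0.184 and 0.784 RPKM after PTBI and at 0.0750, 0.0206 and 0.0842 RPKM in controls, 9.08-fold higher. PTBI replicate 2, the lowest here, was among the higher PTBI samples in *CG5246*, so these protease genes did not share 1 order of samples. *CG10232* (cSP14, a CLIP-domain protease by that name) was the most abundant of the 9. It was at 1.90, 1.90 and 2.21 RPKM after PTBI and at 0.468, 0.282 and 0.404 RPKM in controls, 5.21-fold higher, with PTBI samples close to each other.

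The other 3 protease genes were closer to their controls. *CG33459* (SP238) averaged 0.764 ± 0.137 RPKM after PTBI against 0.160 ± 0.0763 RPKM (n = 3 each, SD), a ratio of 4.79. *CG4998* (SPH66) was 2.61-fold higher at 0.604 ± 0.116 RPKM, and 1681 bp of its exons are also exon of a noncoding gene on the same strand, *lncRNA:CR45893*. *CG18754* (cSP61) was 2.23-fold higher at 0.290 ± 0.0332 RPKM. It shares 107 bp of exon on the same strand with *SPE*, the gene of the Spätzle-processing enzyme, which was not listed. Reads in shared stretches cannot be assigned to 1 gene.

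The highest level after injury belonged to *CG43175*, a gene of 4 exons on chromosome 3R (17630717 to 17645262, BDGP6) with a coding sequence of 116 amino acids. It was at 13.1, 26.9 and 16.8 RPKM in the PTBI samples and at 0.785, 0.728 and 1.05 RPKM in controls. The means of 19.0 ± 7.13 and 0.853 ± 0.170 RPKM (n = 3 each, SD) gave a ratio of 22.2, the largest of the 45. PTBI replicate 2 stood above the other PTBI samples, and the lowest of the 3 was still 12.5 times the highest control. This ratio rests on 1124 reads against 53 and has a counting interval of 16.6 to 29.4 for the ratio of RPM, narrow for this set. The variance between its PTBI samples was 50.2 times that from counting alone, so the interval understates the spread between samples.

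Next in abundance were 3 genes with short coding sequences. *CG13482* encodes 102 amino acids in 1 exon and was at 5.09, 7.07 and 4.48 RPKM after PTBI against 0.808, 0.871 and 0.419 RPKM in controls, 7.93-fold higher. *CG4269*, also with 102 codons, was at 3.79, 6.93 and 3.64 RPKM after PTBI against 0.715, 0.558 and 0.655 RPKM in controls, 7.45-fold higher. *CG42867* encodes 67 amino acids and was at 2.80, 4.97 and 3.90 RPKM after PTBI against 0.536, 0.758 and 0.946 RPKM in controls, 5.21-fold higher. PTBI replicate 2 was the highest sample in each of these 3 genes, as in *CG43175*. Coding sequences under 150 amino acids made up 25.6% of the set (11 of 43 genes with a coding sequence), against 25.4% of the genes listed as higher and 14.2% of all protein-coding genes.

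*CG14879* (179 amino acids) was at 2.99, 3.61 and 4.02 RPKM after PTBI and at 0.816, 0.521 and 0.654 RPKM in controls, 5.33-fold higher on 644 reads against 122. *CG8620* (187 amino acids) was at 1.92, 3.23 and 2.97 RPKM after PTBI and at 0.822, 0.998 and 1.07 RPKM in controls, 2.81-fold higher. Its control mean, 0.963 RPKM, was the closest to the limit of the rule. *CG18171* came next, with a control mean of 0.948 RPKM, and was at 1.72, 1.63 and 2.13 RPKM after PTBI and at 0.754, 0.665 and 1.43 RPKM in controls. Its ratio of 1.93 was the smallest of the set, and control replicate 3 lay just under the PTBI samples. *CG43175*, at 0.853 RPKM, was next below. Just outside it stood *CG14515*, with a control mean of 1.01 RPKM and a PTBI mean of 5.87 RPKM, *CG32373* with 1.10 and 2.80 RPKM, and *CG14191* with 1.21 and 3.09 RPKM. The genes on either side of the limit thus differed little in their control levels.

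**Figure D3:**
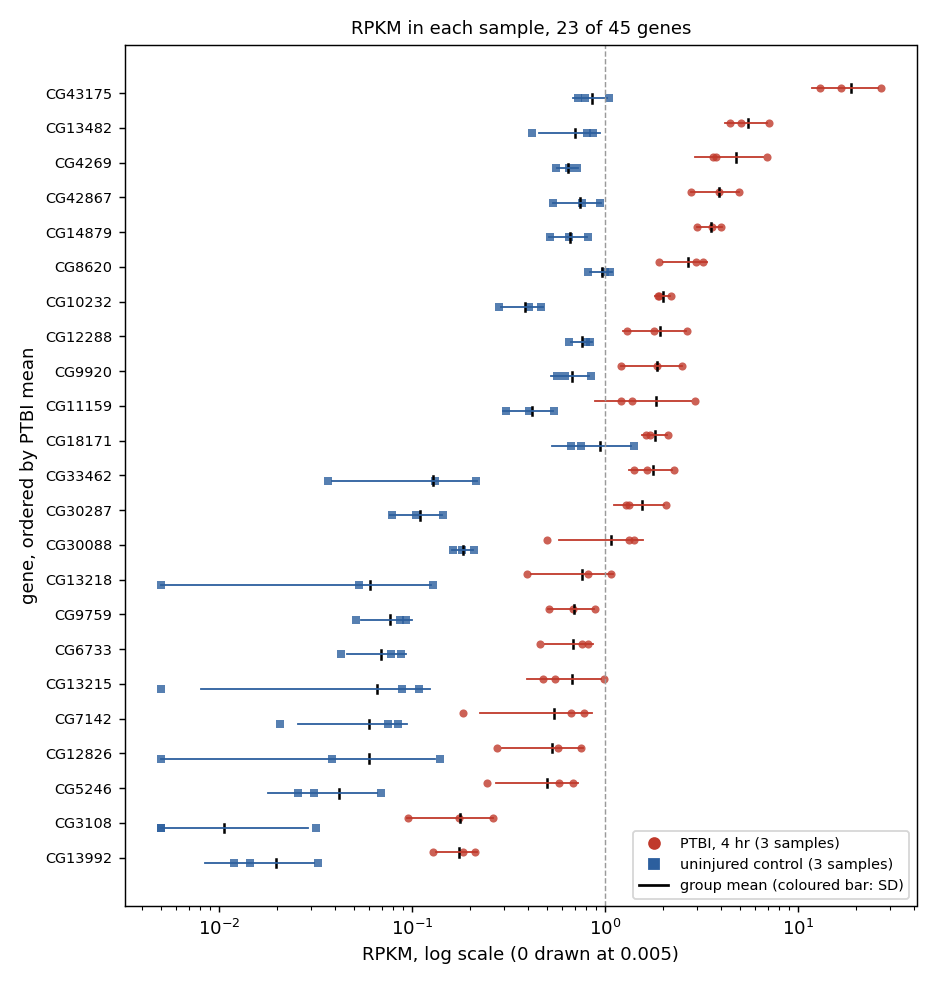
RPKM (x axis, log scale, with 0 drawn at 0.005) of 23 of the 45 genes in each PTBI sample (red circles) and each control (blue squares). Black ticks mark group means and coloured bars the SD over 3 samples, cut at 0.005. PTBI samples lie right of the controls in every gene, from 13.1 to 26.9 RPKM in *CG43175* down to 0.129 to 0.213 RPKM in *CG13992*.

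Several other genes have an enzyme or RNA-binding role in the names that RefSeq or the annotation gives. *CG12288* (RBM34, an RNA-binding motif protein) was at 1.80, 2.68 and 1.31 RPKM after PTBI and at 0.838, 0.655 and 0.796 RPKM in controls, 2.53-fold higher. *Trmt61* (listed as *CG14544*), the catalytic subunit of a tRNA methyltransferase, averaged 1.38 ± 0.125 RPKM after PTBI against 0.637 ± 0.0988 RPKM (n = 3 each, SD), a ratio of 2.17. Both were thus near the smallest ratios of the set. *CG10814* (gamma-BBH, gamma-butyrobetaine hydroxylase, which makes carnitine) was 3.47-fold higher at 0.537 ± 0.0936 RPKM. Control replicate 3 gave 10 of its 20 control reads, and leaving that sample out made the ratio 5.22. *CG9389* (IMP, an inositol monophosphatase) was 2.45-fold higher at 0.602 ± 0.0308 RPKM, with SD far smaller after PTBI than in controls (0.129 RPKM). *Nepl17* (listed as *CG14529*), of the neprilysin-like metallopeptidases, was 4.59-fold higher at 1.32 ± 0.298 RPKM against 0.286 ± 0.0854 RPKM (n = 3 each, SD).

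*CG9920* (102 amino acids), a predicted mitochondrial co-chaperonin of the Hsp10 kind, was at 1.86, 1.21 and 2.51 RPKM after PTBI and at 0.564, 0.620 and 0.844 RPKM in controls, 2.75-fold higher. *CG11159*, a predicted lysozyme, was at 2.93, 1.38 and 1.21 RPKM after PTBI and at 0.307, 0.548 and 0.402 RPKM in controls, 4.39-fold higher. PTBI replicate 1 carried more of it than the other PTBI samples together. *CG6733*, a predicted aminoacylase, was at 0.462, 0.764 and 0.815 RPKM after PTBI and at 0.0780, 0.0428 and 0.0876 RPKM in controls, 9.79-fold higher on 8 control reads. *CG3108*, a predicted metallocarboxypeptidase, gave 19, 23 and 12 reads in the PTBI samples against 0, 0 and 3 in the uninjured ones. In RPKM it was at 0.176, 0.264 and 0.0954 after PTBI, and at 0.0316 in the control with reads. A count of 0 allows up to 3 reads, or 0.0281 and 0.0232 RPKM in the other controls. The ratio of means was 16.9, with a counting interval of 6.02 to 92.8 for the ratio of RPM, so its place among the largest ratios is uncertain.

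Low control reads also set the precision of 4 further genes with large ratios and no known role here. *CG13218* was at 1.08, 0.393 and 0.816 RPKM after PTBI and at 0.128, 0.0529 and 0 RPKM in controls, 12.6-fold higher on 37 reads against 3. Of the 3 control reads, 2 came from control replicate 1, and the ratio was 28.8 if that sample was left out. *CG13215* was at 0.480, 0.992 and 0.549 RPKM after PTBI and at 0.108, 0.0891 and 0 RPKM in controls, 10.3-fold higher on 36 reads against 4. *CG12826* was at 0.277, 0.573 and 0.753 RPKM after PTBI and at 0.140, 0.0386 and 0 RPKM in controls, 8.96-fold higher. Its ratio was 27.7 without control replicate 1, so a single library decides its size. *CG13992* was at 0.129, 0.213 and 0.184 RPKM after PTBI and at 0.0145, 0.0120 and 0.0326 RPKM in controls, 8.91-fold higher on 36 reads against 4. The 3 zeros, all in control replicate 3, allow up to 0.216 RPKM of *CG13218*, 0.182 RPKM of *CG13215* and 0.158 RPKM of *CG12826*. These limits are above what the other controls held, so at this depth the genes were not shown to be off in that sample. *CG9759* (112 amino acids) had more control reads, 15 in all. It was at 0.886, 0.682 and 0.511 RPKM after PTBI and at 0.0928, 0.0510 and 0.0869 RPKM in controls, 9.01-fold higher.

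For 22 genes no values by sample are given, and their ratios ran from 2.06 to 7.81 with a median of 3.32. Besides those already named, they are *CG43179*, *CG17738*, *CG11370*, *CG33469*, *CG14273*, *CG15482*, *CG42266*, *CG33136*, *CG16879*, *CG31427*, *CG9411*, *CG9084*, *CG12917*, *CG2964* and *CG13492*. The largest ratio here was in *CG33469* (160 amino acids), which averaged 1.44 ± 0.299 RPKM after PTBI against 0.184 ± 0.121 RPKM (n = 3 each, SD). *CG17738* was 5.69-fold higher at 1.57 ± 0.591 RPKM, or 8.81-fold when control replicate 2, with 7 of the 11 control reads, was left out. *CG11370* was 4.62-fold higher at 1.53 ± 0.890 RPKM, but 3.07-fold without PTBI replicate 1, which held 102 of its 181 PTBI reads. The lowest level was that of *CG13492*, the longest gene of the set with 9183 bp of exon, which averaged 0.0433 ± 0.0102 RPKM after PTBI against 0.00940 ± 0.00142 RPKM. The current annotation holds *CG31427* as the pseudogene *CR31427*, and RefSeq lists CG16879 as a synonym of *CG46301*. Neither gave whole reads with the annotation used.

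PTBI replicate 1 was the lowest of the 3 in 57.1% of the 259 genes listed as higher, and in 37.8% of the 45 (17 genes), a difference that was not tested. It was the highest in 10 of the 45, among them *CG11159*, *CG11370*, *CG13218*, *CG17738* and *CG9759*. PTBI replicate 2 was the highest in 20 genes and replicate 3 in 15, and over all higher genes the highest sample was likewise most often replicate 2, then 3, then 1. The variance between PTBI samples was 2.45 times the counting variance in the median gene, against 12.1 times over 251 higher genes with reads in both groups. Between controls it was 0.804 times, but with a median of 21 control reads, variation beyond counting could hardly show. The ratio to counting variance grows with read number, so it does not compare the spread of sets at unlike levels. As a percent of the mean, the median SD between PTBI samples was 24.5% in the 45 genes and 18.6% over the 259.

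**Figure D4:**
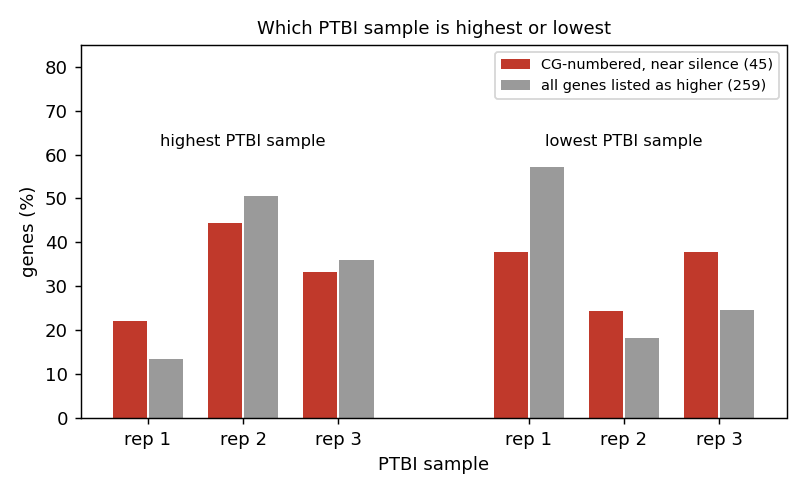
Share of genes (y axis, %) in which each PTBI sample was the highest (left) or the lowest (right), for the 45 genes in red and all 259 genes listed as higher in grey. PTBI replicate 1 was the lowest in 37.8% of the 45 genes and in 57.1% of all higher genes.

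The genes were spread over the genome, with 16 of the 44 found in the annotation on chromosome 2R, 14 on 3R, 6 each on 2L and 3L, and 2 on X. The share on 2R was 36.4%, against 29.2% of the higher genes and 20.4% of all protein-coding genes. A further listed gene lay within 5 kb of 6 of the 44 (13.6%), and of 30.6% of the 209 other higher genes found in the annotation. In all 6 cases the neighbour was on the same strand and was itself higher after PTBI. *CG33462* and *CG30088* are counted separately here, although each is the neighbour of the other. Of all listed genes, 70.6% were higher, and the share on the same strand among the other higher genes was not determined. The genes left out by name count among the 209, and several lie close to another listed gene, such as *CG42866*, 72 bp from *CG13965*. Leaving them out lowers the share in this set, so the shares do not compare like with like.

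Known immune genes lay next to *CG43175* and *CG13215*. *AttD*, a gene of the antibacterial Attacins, ends 4.63 kb upstream of *CG43175* and was at 22.0, 26.1 and 21.1 RPKM after PTBI and at 2.94, 1.68 and 2.84 RPKM in controls, 9.28-fold higher. *CG43175* thus had a larger ratio than its neighbour and a level after PTBI close to it. *Listericin*, an antibacterial protein gene, lies 1.63 kb upstream of *CG13215* and was at 186, 250 and 279 RPKM after PTBI and at 30.5, 60.9 and 67.2 RPKM in controls, 4.51-fold higher. *CG13215* stood at 0.283% of the level of *Listericin* after PTBI, and whether transcripts of that gene reach into it was not tested. On the other side of *CG13215* lies *CG13218*, 5.78 kb away, and 13.4 kb beyond it *CG9084*, with other genes between them.

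*CG9920* lies 0.457 kb from *CCHa1*, a neuropeptide gene at 12.1, 13.3 and 12.2 RPKM after PTBI and at 4.78, 5.61 and 3.96 RPKM in controls. The ratios were close, 2.75 for *CG9920* and 2.62 for *CCHa1*. *CG13992* lies 2.11 kb from *asRNA:CR43465* (listed as *CR43465*), which was 6.99-fold higher at 0.320 ± 0.0659 RPKM (SD, n = 3). The protease genes *CG30088* and *CG33462* are each other's neighbour, 4.58 kb apart, with *CG30087*, *CG33460* and *CG33461* between them. None of those 3 was listed. *CG10232* and *CG18754*, both of the CLIP-domain proteases, lie 32.8 kb apart on 3R.

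Of the 44 genes, 11 (25.0%) lie inside an intron of another gene without sharing exon sequence. The share was 13.0% over the higher genes and 9.77% over all protein-coding genes. The hosts were *fz* for *CG13482*, *tweek* for *CG12288*, *Lrt* for *CG11159*, *drpr* for *CG18171*, *MetRS-m* for *CG43179*, *svp* for *CG17738*, *Egfr* for *CG30287*, *CG33203* for *Nepl17*, *Cow* for *CG6733*, *eIF1A* for *CG7142* and *CG42699* for *CG3108*. None of the hosts was listed as changed at 2-fold or more. *drpr* encodes the engulfment receptor Draper, by which glia clear cell debris, and its intron holds the gene with the smallest ratio. The host is on the same strand in *CG13482*, *CG17738* and *CG18171* and on the opposite strand in the other 8. Exons of 11 genes overlap a gene on the opposite strand, among them *CG30088*, which an antisense RNA covers in full, and *CG14273*. The libraries were strand-specific, but no source used here states whether the counting took strand into account.

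By their 6 log2(RPKM + 0.1) values, the listed genes most like *CG43175* were *DptB*, a Diptericin gene, and *Nop56*, a nucleolar protein gene (Pearson's r 0.998 for both). The genes most like *CG13482* were *CG5909* and *CG33462*, and those most like *CG4269* were *Mco1* and *CG15279*. For *CG42867* they were *PGRP-SD*, a peptidoglycan receptor gene, and *CG4725*. The 8 correlations ran from 0.995 to 0.998 over 6 samples, and since every listed gene separates the same groups of samples, high values are the rule here.

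Some markers of other tissues moved with injury in the same samples. Of 6 fat body genes looked up, 4 were listed as lower (*Lsp2*, *Lsp1beta*, *apolpp* and *fit*), with a summed level of 136 to 318 RPKM after PTBI and 1087 to 1715 RPKM in controls. Of 5 glial genes, *wrapper* and *Mdr65* were listed as lower, and both salivary gland genes, *Sgs3* and *Sgs5*, had no read after PTBI. *Sgs3* and *Sgs5* were also low in controls, with means of 0.682 and 0.774 RPKM and a summed level that ran from 0.407 to 2.78 RPKM. None of 8 hemocyte genes, 5 neuronal genes, 5 photoreceptor genes or 3 muscle genes was listed, and genes that are not listed have no values. The tissue label could therefore not be checked against defining markers. The part of these shifts in the levels of the 45 genes was not tested. Of known pathway genes, 13 of 14 Toll and Imd peptide genes, 4 of 5 JNK targets and 6 of 7 JAK/STAT genes looked up were listed as higher. Of all 367 listed genes, 259 (70.6%) were higher. The pathway genes were chosen with earlier results of these data known, so the counts are a description and no separate evidence. The 6 JAK/STAT genes include *upd2* and *upd3*, which the paper names as activators of that pathway and not as its targets.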

How the data were processed

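The authors made strand-specific mRNA libraries (single-end 50 bp reads), mapped them with Subjunc to a FlyBase genome, counted reads per gene and applied voom and limma. The submitters' processing notes name Subread and limma, and versions and genome release are not given in the sources used here. The RPKM values are as the authors deposited them, and cover only genes that passed the authors' limits of a 2-fold change and an adjusted p of 0.05. Further deposited columns hold the results of the authors' own test (mean log2 expression, log2 change and p-values) and were left unused.

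The 45 genes, the lists and the comparisons were chosen with earlier results of these data known. Ratios are of group mean RPKM without a pseudocount, with SD over 3 samples. No test was run, because the comparison chose the genes. Identifiers matched the Ensembl 115 annotation (BDGP6) for 360 of 367 genes, and 355 gave whole reads, within 0.02 reads, in all 6 samples, so its coordinates are printed although the authors' build is not stated. The recovery was tested on simulated data. Protease synonyms came from the RefSeq gene table (Release 6). Values by sample are given for the 12 genes with the highest PTBI means, the 12 with the largest ratios, those with a listed gene within 5 kb and the 3 nearest the limit of 1 RPKM, 23 in all. The 2 most alike genes are given for the 4 most abundant. Intervals are exact (Clopper-Pearson, 95%) on reads summed over each group. They leave out the spread between samples, and PCR copies also make them too narrow. Alternatives changed the control limit, the pseudocount, the centre, the scaling, a minimum of 10 reads and the samples used. Promoter motifs and protein sequences were not analysed here. Tables were handled with pandas 2.3.3 and numpy 2.4.6 in Python 3.11.15, intervals computed with scipy 1.17.1 and plots drawn with matplotlib 3.10.9.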

Additional observations from a re-analysis of the deposited data

How the results depend on the processing

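The number of genes in the set depends on how a low control level is defined. It was 35 with control means below 0.5 RPKM, 56 with a limit of 2 RPKM and 46 by group medians, and 20 if the PTBI mean had also to be above 1 RPKM. Leaving out any 1 sample kept the number at 45, but not always the same genes. Without control replicate 1, for example, *CG8620* and *CG18171* left the set and *CG14515* and *CG42792* entered it. The median ratio of 4.62 was 3.27 with a pseudocount of 0.1, 1.54 with a pseudocount of 1 and 2.77 with each sample scaled to its median over the listed genes, most of which were higher after PTBI. It ran from 4.80 to 5.22 when 1 sample was left out. The number of genes at 10-fold or more, 7 in the data as deposited, was 1 with either pseudocount and ran from 6 to 11 when 1 sample was left out, with 11 reached without control replicate 1. For the ratios of single genes, the alternatives were group medians and leaving out 1 sample. Of these, 312 of 314 stayed within the spread of replicates, which is wide for genes with few reads. In 6 genes, leaving out 1 sample changed the ratio more than 1.5-fold. No ratio could change direction, because the PTBI and control samples did not overlap in any of the 45 genes. A minimum of 10 reads over the 6 samples removed none of the 43 genes with recovered reads. The group median ratio could not be had for *CG3108*, whose control median is 0. The controls hold 10 reads or fewer for 12 genes, which limits what depth can show of them. No paired analysis was possible, because the labels do not tie replicate numbers to a shared cross or day.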
